A study of Mus musculus with 4 samples.

Results

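The leukocyte integrin genes Itgax, Itgam, Itgal, Itgad, Itgav, Itgb1, Itgb2, Itgb6, Itgb7 and Itgb8 were described in a PPARγ binding map of mouse alveolar macrophages (AMs). They are 10 of the 20923 protein-coding mouse genes with a curated RefSeq transcript on chromosomes 1 to 19 and X. The list names integrin subunits, most of them carried by leukocytes, and leaves out some that leukocytes carry, such as Itga4. It was chosen with earlier results of these data known, and genes on it were kept whether or not PPARγ bound near them. PPARγ binding was mapped by HT-ChIPmentation, a chromatin immunoprecipitation in which a transposase adds the sequencing tags to bead-bound chromatin. The AMs came from untreated WT mice, young adults of the C57BL/6J strain, by bronchoalveolar lavage and cell sorting, and PPARγ was captured with 1 antibody (#C15410367, Diagenode). The group holds 2 ChIP libraries, called library 1 and library 2 after their numbers in the labels, and 2 input libraries, made without antibody, that the authors set against them. No knockout or second condition is part of the series, so values describe 1 group of cells and no difference between conditions was tested. The labels do not say whether the libraries came from separate mice.

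Integrins are adhesion receptors made of 1 α and 1 β subunit, and the pairing decides which ligand is held. The β2 subunit, encoded by Itgb2, pairs with αL (Itgal), αM (Itgam), αX (Itgax) or αD (Itgad), and these 4 receptors serve leukocyte adhesion to endothelium and the uptake of complement-coated particles. Mouse AMs at rest are known for high surface αX, the protein called CD11c, and little αM, called CD11b. The αv subunit (Itgav) pairs with β1, β6 or β8 among others, and αv with β6 or β8 releases TGFβ from its latent form. PPARγ, a nuclear receptor activated by fatty acid derivatives, acts on DNA together with RXR and is needed for AM development.

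The authors' peak lists held 83787 peaks in library 1 and 28535 in library 2, a ratio of 2.94. Peaks of the libraries that shared at least 1 bp were merged, and the 20233 merged regions with a peak from each library are called regions here. Each region belongs to the protein-coding gene whose transcription start site (TSS) is nearest to its centre. All coordinates are mm10. The fold is the authors' fold enrichment of ChIP over input for the highest peak of a library in the region. Where a percentage follows a fold, it is the share of all regions whose fold in that library was no higher. The fold values mostly fell on discrete steps, 0.296 apart for 76.7% of the peaks in library 1 and 0.279 apart for 81.4% in library 2, so folds less than 1 step apart were not ordered. The lists carry no read counts, and the read totals that the study lists for its libraries are not used here, so no depth stands behind a fold and a peak missing from library 2 may lie below what that list could detect. Of the AM marker genes checked (Siglecf, Marco, Car4, Chil3, Pparg and Fabp4), 6 of 6 had a region. So did 0 of 4 T and B cell markers, 1 of 4 neutrophil markers, 2 of 4 lung epithelium markers and 2 of 4 endothelium markers. Of all protein-coding genes, 31.6% had a region, and lists this short do not show which cells were present. Peak lists do not measure expression, and binding near a gene does not give the level of its product.

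PPARγ regions lay at 8 of the 10 leukocyte integrin genes, where 31.6% of all protein-coding genes had one. The 8 genes held 25 regions. Itgb2, the common β chain, had the most with 7, followed by Itgax with 5, Itgam and Itgb1 with 3 each, Itgal, Itgad and Itgav with 2 each, and Itgb8 with 1. Itgb6 and Itgb7 had none. In single libraries, 9 of the 10 genes had a peak in library 1, beside 60.6% of all genes, and 8 had a peak in library 2, beside 34.9% of all genes.

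The 5 genes of the β2 receptors held 19 of the 25 regions, and the other 5 genes held 6. The β2 regions had a median fold of 7.91 in library 1 and 6.19 in library 2, with ranges of 4.15 to 17.8 and 3.43 to 11.8. The regions of Itgav, Itgb1 and Itgb8 had a median of 5.78 and 4.24, with ranges of 4.15 to 8.0 and 3.96 to 6.19. Of the β2 regions, 11 of 19 reached at least the middle of all regions in both libraries, and 0 of the other 6 did. The share over all regions was 36.6%. Itgb2 and Itgax gave 12 of the 19. The groups overlapped in both libraries, and the split was not tested.

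**Figure D1:**
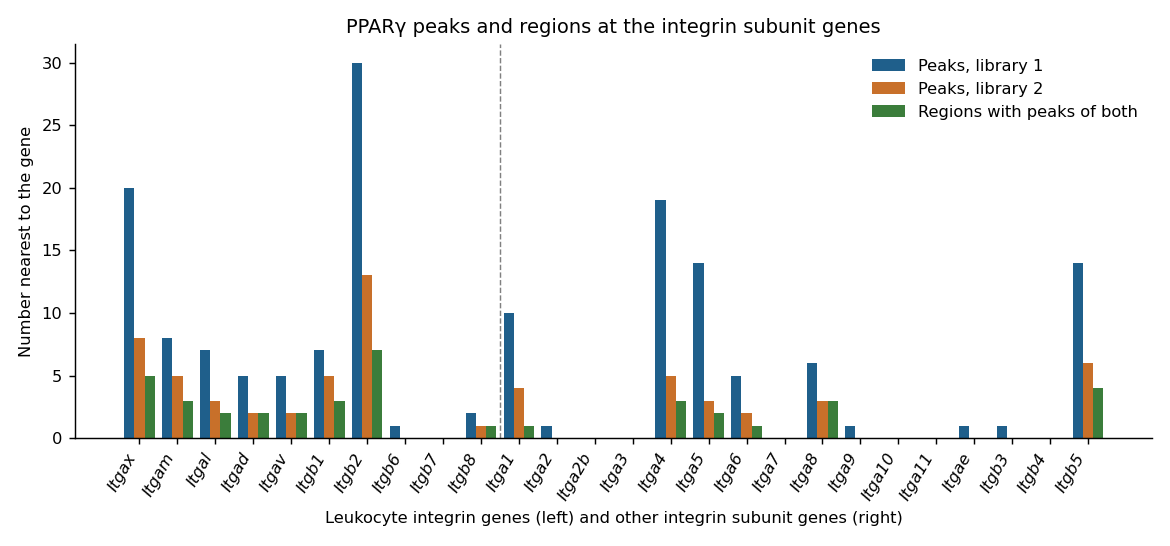
Number of PPARγ peaks in library 1 (blue), in library 2 (orange) and of regions with peaks of both (green) nearest to each of the 26 integrin subunit genes, with the 10 leukocyte integrin genes left of the dashed line. Itgb2 has the tallest bars in all 3 counts (30 peaks, 13 peaks and 7 regions), and Itgb7 has none.

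The sequences under the peaks that the results below turn on are printed here, each as 201 bases of the plus strand of mm10 centred on the library 1 summit. Capitals mark matches to the PU.1, ETS, C/EBP, AP-1, RUNX and nuclear receptor patterns defined further below. Regions are numbered along the chromosome within each gene. The first 4 come from the α chain cluster on chromosome 7. Itgam_1 is shown as the region with the highest fold among the 25, Itgax_1 because it spans the Itgax TSS, Itgam_3 because it holds 3 different macrophage factor patterns, and Itgad_2 because an ETS and a RUNX match share a base in it.
Itgam_1, chr7:128063316-128063516: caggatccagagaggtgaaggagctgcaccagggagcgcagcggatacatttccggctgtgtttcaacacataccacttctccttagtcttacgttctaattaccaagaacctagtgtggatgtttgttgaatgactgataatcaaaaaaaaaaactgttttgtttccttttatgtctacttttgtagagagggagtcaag
Itgam_3, chr7:128089273-128089473: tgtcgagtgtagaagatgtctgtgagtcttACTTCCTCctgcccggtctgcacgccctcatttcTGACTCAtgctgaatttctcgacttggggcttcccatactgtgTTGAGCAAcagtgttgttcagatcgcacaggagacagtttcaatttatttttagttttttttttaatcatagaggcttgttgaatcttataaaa
Itgax_1, chr7:128129255-128129455: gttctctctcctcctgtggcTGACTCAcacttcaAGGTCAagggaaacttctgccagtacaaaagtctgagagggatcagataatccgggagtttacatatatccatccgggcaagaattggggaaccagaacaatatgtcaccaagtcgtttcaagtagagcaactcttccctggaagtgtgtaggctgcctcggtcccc
Itgad_2, chr7:128178374-128178574: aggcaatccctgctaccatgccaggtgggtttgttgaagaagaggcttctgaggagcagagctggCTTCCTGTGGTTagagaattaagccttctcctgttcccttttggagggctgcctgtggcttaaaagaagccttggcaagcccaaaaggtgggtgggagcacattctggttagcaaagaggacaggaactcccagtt

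The other 4 come from Itgb2 on chromosome 10. Itgb2_1 and Itgb2_6 are shown as the windows with matches, each with 1 mismatch, to the PPAR and RXR type pattern. Itgb2_2 is shown because a RUNX match and a receptor half-site meet at the summit, and Itgb2_4 because an ETS and an AP-1 match stand side by side.
Itgb2_1, chr10:77523181-77523381: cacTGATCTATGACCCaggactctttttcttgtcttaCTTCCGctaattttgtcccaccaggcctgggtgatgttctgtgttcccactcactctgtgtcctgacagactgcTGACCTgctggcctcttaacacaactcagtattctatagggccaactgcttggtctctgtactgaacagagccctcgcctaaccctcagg
Itgb2_2, chr10:77531067-77531267: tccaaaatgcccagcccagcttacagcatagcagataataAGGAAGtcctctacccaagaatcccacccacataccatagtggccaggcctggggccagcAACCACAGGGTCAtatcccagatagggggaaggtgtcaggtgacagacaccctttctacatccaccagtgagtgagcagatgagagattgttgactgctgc
Itgb2_4, chr10:77545010-77545210: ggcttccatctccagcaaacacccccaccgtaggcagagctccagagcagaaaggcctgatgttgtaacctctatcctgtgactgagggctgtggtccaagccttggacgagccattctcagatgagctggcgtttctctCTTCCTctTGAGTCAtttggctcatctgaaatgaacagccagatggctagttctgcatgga
Itgb2_6, chr10:77547532-77547732: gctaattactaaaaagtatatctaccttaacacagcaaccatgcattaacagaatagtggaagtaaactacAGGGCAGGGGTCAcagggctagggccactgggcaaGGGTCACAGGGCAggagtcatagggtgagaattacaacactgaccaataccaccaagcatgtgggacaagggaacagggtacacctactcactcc

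Itgb2 encodes the β2 chain that every β2 receptor needs, and it carried the densest binding of the list. Nearest to its TSS were 30 peaks in library 1 and 13 in library 2. It had 7 regions, and 3.31% of all genes had as many regions or more. The stretch of chromosome 10 nearer to its TSS than to any other spans 32.9 kb, which gives 21.3 regions per 100 kb where the genome as a whole had 0.768. This figure depends on the length of the stretch, whose median over genes was 48.8 kb. It is not particular to Itgb2, since F11r, among the related genes below, also had 21.3. Of the 7 regions, 1 lay upstream of the TSS and 6 lay in the gene body, spread over 22.0 kb from the TSS into the first part of the gene. The best placed region, Itgb2_7 (chr10:77549432-77551758), was centred in intron 7 of 15, 20.2 kb downstream of the TSS, with a fold of 14.8 in library 1 and 8.98 in library 2. Its folds were no lower than those of 95.3% and 91.8% of all regions. Its summits in the libraries were 2 bp apart and lay in intron 8, 20.8 kb downstream. Next came Itgb2_3 (chr10:77535111-77537931) in intron 1, 6.15 kb downstream, with a fold of 17.2 and 8.42. Itgb2_4 (chr10:77544500-77545256) lay in intron 3 with a fold of 9.77 and 7.52. Itgb2_6 (chr10:77547364-77548335) lay in intron 5 with a fold of 10.7 and 6.75. All 4 stood above the median of all regions in both libraries. Itgb2_7 was above 90% of all regions in both, and Itgb2_3 was at 97.8% and 89.3%.

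Itgb2_2 (chr10:77529715-77532748) is named, after its values were seen, as the region that spans the Itgb2 TSS. It was the widest of the 25 at 3034 bp, where the list had a median width of 868 bp and all regions 626 bp. Its fold was 7.91 in library 1 and 8.98 in library 2, at 62.7% and 91.8% of all regions. Its summits lay 797 and 782 bp downstream of the TSS, in intron 1 and not at the TSS itself. The remaining regions were Itgb2_1, 7.14 kb upstream with folds of 4.56 and 4.79, and Itgb2_5 in intron 4, with folds of 5.63 and 5.50. On either side of the gene, 1 more region each was nearer to the TSS of another gene. The one 8.23 kb upstream (fold 8.29 and 5.63) went to Fam207a and the one 37.0 kb downstream, beyond the last exon (fold 6.22 and 4.34), to Pttg1ip. Library 1 alone added 20 merged peak stretches at Itgb2 with folds of 2.44 to 6.52, and library 2 alone added 2.

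**Figure D2:**
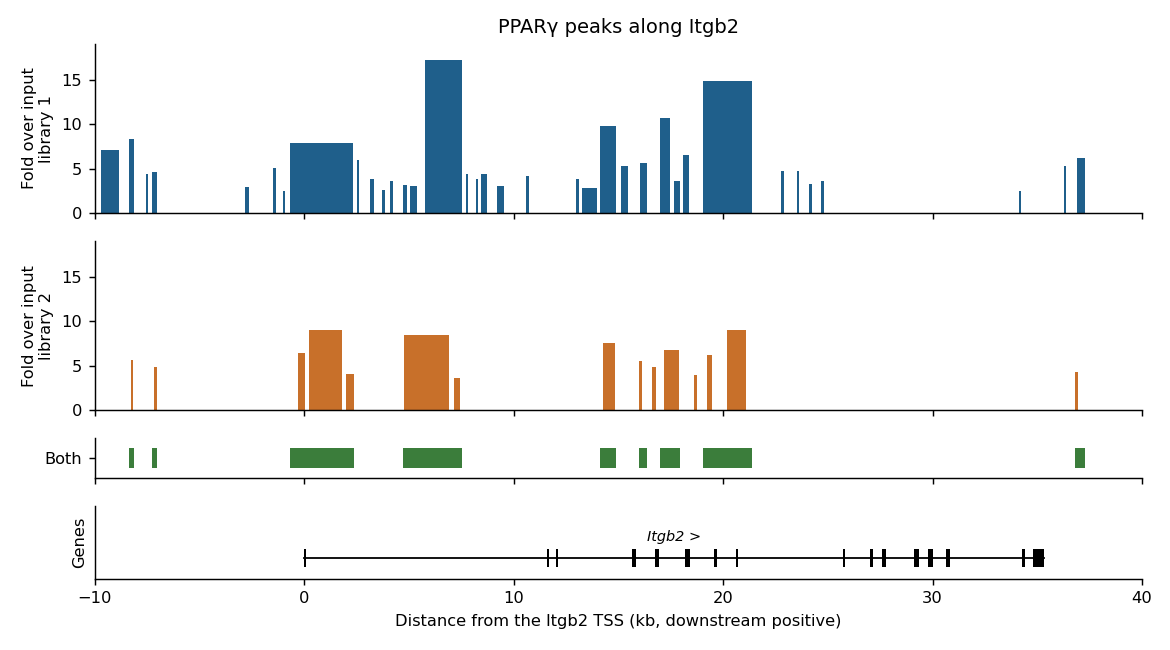
Height of every PPARγ peak (fold over input) in library 1 (blue) and library 2 (orange) against the distance from the Itgb2 TSS in kb, with the regions shared by both libraries (green) and the exons of Itgb2 (black) below, narrow features being drawn at a minimum width. The 6 shared regions in the gene span 22.0 kb from just before the TSS and none follows until past the last exon, and the outermost green marks belong to Fam207a (beside Itgb2_1, on its left) and Pttg1ip.

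Itgam, Itgax and Itgad encode αM, αX and αD and stand in a row in the same orientation on chromosome 7. From the start of Itgam to the end of Itgad (chr7:128062640-128205504) the cluster spans 143 kb, with 11.1 kb between Itgam and Itgax and 23.3 kb between Itgax and Itgad. It held 10 regions, or 7.0 per 100 kb. All 10 were centred downstream of the TSS of the gene to which they were assigned, within that gene's body. The regions formed 3 separate groups, 1 in each gene, with 39.1 kb free of regions between the last of Itgam and the first of Itgax, and 37.3 kb between the last of Itgax and the first of Itgad. On the Itgam side, Trim72 had 2 regions and Pycard had 0. On the Itgad side, Cox6a2 and Armc5 had 0 each.

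Itgam encodes αM, the α chain of the complement receptor Mac-1. Itgam_1 (chr7:128063124-128063939), in intron 1 of 29, was centred 0.891 kb downstream of the TSS with a fold of 17.8 in library 1 and 11.8 in library 2. It ranked 249 of the 20233 regions by the lower of its positions in the libraries, at 98.1% and 97.6%, and had the highest fold of the 25 regions in both. It was high in both libraries. Itgam_2 (chr7:128065487-128066443) in intron 2 was near the middle of all regions, with folds of 7.26 and 5.35. Itgam_3 (chr7:128089114-128089734) in intron 12, 26.8 kb downstream, had folds of 5.33 and 5.35, and its summits in the libraries lay 26.7 and 27.1 kb from the TSS. Library 1 alone added 5 stretches at Itgam, up to a fold of 7.41 at 13.7 kb upstream, and library 2 alone added 1.

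Itgax encodes αX, whose protein CD11c is a surface marker of AMs. Nearest to its TSS were 20 peaks in library 1 and 8 in library 2, and it had 5 regions. Counts of at least 5 regions were found at 5.79% of all genes, among them Itgb2 and Itgax. Itgax_1 (chr7:128128883-128130913) spans the TSS, with a fold of 10.7 and 7.31, at 83.5% and 82.2% of all regions. Its summits lay upstream of the TSS, by 195 bp in library 1 and by 72 bp in library 2. Itgax_2 (chr7:128133254-128134460) had a fold of 17.2 in library 1 and 7.87 in library 2. Its summits were 8 bp apart, 4.26 and 4.25 kb downstream, and the library 1 summit fell in exon 8 of 30. The centre was in intron 8 of the full-length transcript and within coding sequence of shorter curated transcripts. It was the second highest in library 1 among the cluster's regions, after Itgam_1, and stood lower than Itgam_1 in library 2.

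The other Itgax regions lay close together in intron 14 of 29. Itgax_3 (chr7:128137069-128138060) had folds of 8.0 and 6.19. Itgax_4 (chr7:128138201-128139068) had folds of 8.89 and 3.96, at 72.8% of all regions in library 1 and 11.4% in library 2. Itgax_5 (chr7:128139190-128139434) had folds of 4.15 and 3.68, at 14% and 5.88%. Itgax_3 was above the median in both libraries, Itgax_4 in library 1, and Itgax_5 in neither. All 5 Itgax regions fit within 10.6 kb, and a further 14 stretches in library 1 alone had folds of 2.59 to 6.22. Library 2 alone added 2, with folds of 3.39 and 4.52. Not all of these stretches lay at Itgax itself. Those of library 1 from 31.1 to 19.1 kb upstream lay in introns of Itgam. Those of library 2, 11.8 and 11.1 kb upstream, overlapped the end of Itgam, and all were nearer to the Itgax TSS.

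Itgad encodes αD, a β2 partner best known from splenic red pulp macrophages. Itgad_1 (chr7:128176773-128177114), in intron 2 of 30 and 3.0 kb downstream, had a fold of 6.81 in library 1 and 4.24 in library 2. Itgad_2 (chr7:128178337-128179288) in intron 5, 4.87 kb downstream, had a fold of 7.70 and 4.74. Both stood at or above the median of all regions in library 1 and below it in library 2, at 18.9% and 28.9%. Their summits in the libraries were over 100 bp apart. With a minimum fold of 5 in both libraries, or with summits required within 100 bp, Itgad had 0 regions, and the cluster had 6 and 4 in place of 10.

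**Figure D3:**
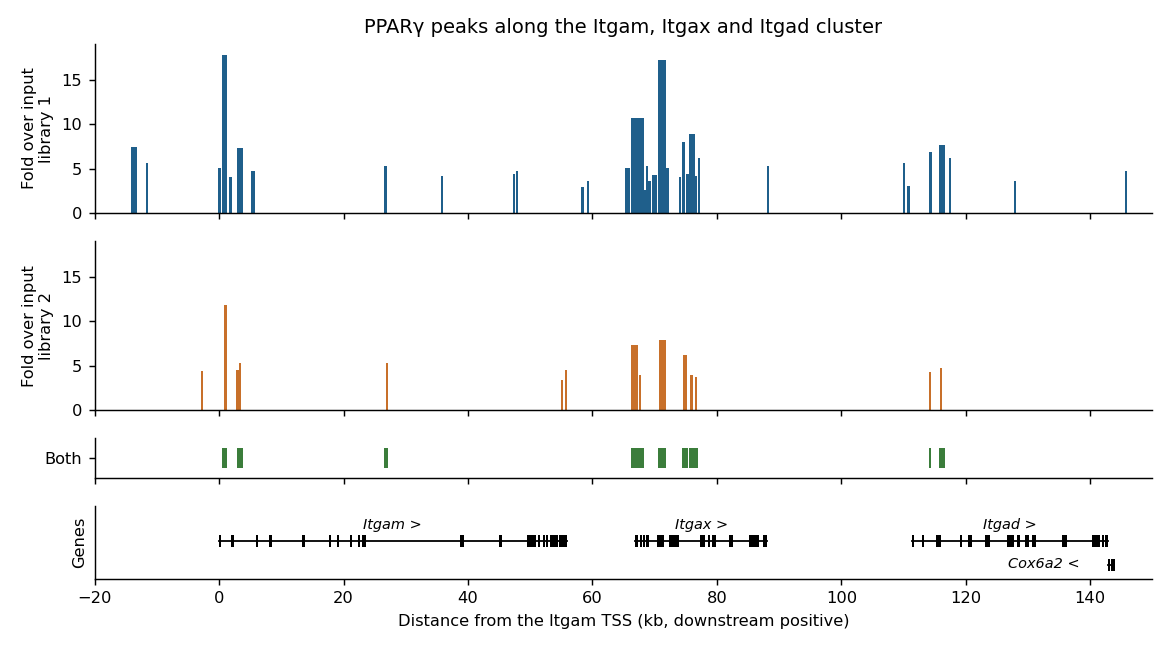
Height of every PPARγ peak (fold over input) in library 1 (blue) and library 2 (orange) along the Itgam, Itgax and Itgad cluster, against the distance from the Itgam TSS in kb, with the regions shared by both libraries (green) and the exons of each gene (black) below, narrow features being drawn at a minimum width. Shared regions lie in the first part of each gene and, for Itgam, also in intron 12, while no peak of one library overlaps a peak of the other between the last region of Itgam and the first of Itgax, or between the last of Itgax and the first of Itgad.

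Itgam, Itgax and Itgad arose by gene duplication. When the 25 region sequences were aligned with each other by blastn at an E-value limit of 1e-05, no region of Itgam, Itgax or Itgad matched a region of either of the others. The alignments found were Itgam_2 with Itgb2_2 (92.553% identity over 94 bp), Itgax_5 with Itgb2_3 and Itgb2_3 with Itgb2_5, between genes on different chromosomes or within Itgb2. Bases marked as repeats in the genome made up 63.9% of Itgb2_5, 45.3% of Itgax_5 and 34.7% of Itgb2_3. They made up 31.2% of Itgam_2 and 16.6% of Itgb2_2, where the median of the 25 was 20.4%. Whether the alignments fell in repeats was not tested. The alignment covered only the 25 regions and not the rest of these genes, and whether reads were placed on the wrong copy was not tested.

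Itgal encodes αL, the α chain of LFA-1, which binds ICAM-1 on endothelium. It lies on chromosome 7 too, but its TSS is 766 kb from that of Itgam. Itgal_2 (chr7:127295875-127297417) spans the Itgal TSS, with a fold of 7.70 in library 1 and 6.47 in library 2, both above the median of all regions. Its summits lay in intron 1, 0.997 and 1.06 kb downstream. Itgal_1 (chr7:127287964-127288387), 8.09 kb upstream in intergenic sequence, had a fold of 5.33 and 3.43, and was at 2.49% of all regions in library 2. Between these regions stood 4 peak stretches of library 1 alone, at 7.53 to 5.81 kb upstream, with folds of up to 8.29. The tallest of these was higher in library 1 than either shared region.

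Among the genes outside the β2 group, Itgb1 encodes β1, shared by receptors for fibronectin, laminin and collagen. It had 3 regions in a stretch of 353 kb, or 0.849 per 100 kb, close to the 0.768 of the genome. Itgb1_1 (chr8:128654288-128655184) lay 30.9 kb upstream with folds of 5.92 and 3.96, and Itgb1_2 (chr8:128680495-128681051) lay 4.88 kb upstream with folds of 5.63 and 6.19. Itgb1_3 (chr8:128687170-128687374), in intron 1 of 15, had folds of 4.15 and 4.52. Itgb1_2 was above the median of all regions in library 2 alone, and the other Itgb1 regions in neither.

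Itgav encodes αv, the α chain of the TGFβ-releasing integrins. Itgav_1 (chr2:83723872-83724250) was centred 0.336 kb upstream of the TSS and was the 1 region of the 25 with its centre in a promoter, here from 1 kb before to 100 bp after a TSS. It had a fold of 5.92 in library 1 and 3.96 in library 2. Itgav_2 (chr2:83729299-83729661), in intron 1 of 29, had a fold of 5.04 and 3.96. Both were below the median of all regions in both libraries, and neither reached a fold of 5 in library 2.

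Itgb8 encodes β8, and its 1 region (chr12:119156948-119158388) lay 80.6 kb from the TSS in intergenic sequence beyond the 3′ end of the gene. Its fold was 8.0 in library 1 and 5.07 in library 2. Itgb6 encodes β6, found mainly on epithelium. It had 1 peak in library 1, 75.3 kb upstream with a fold of 8.29, and none in library 2. The region nearest to its TSS was 80.5 kb away and went to Rbms1. Itgb7 encodes β7, which pairs with α4 or αE on lymphocytes and mast cells. It had 0 peaks in either library, and the nearest region, 12.3 kb away with folds of 6.24 and 3.68, went to Rarg. No shared region overlapped the body of Itgb6, Itgb7 or Itgb8.

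**Figure D4:**
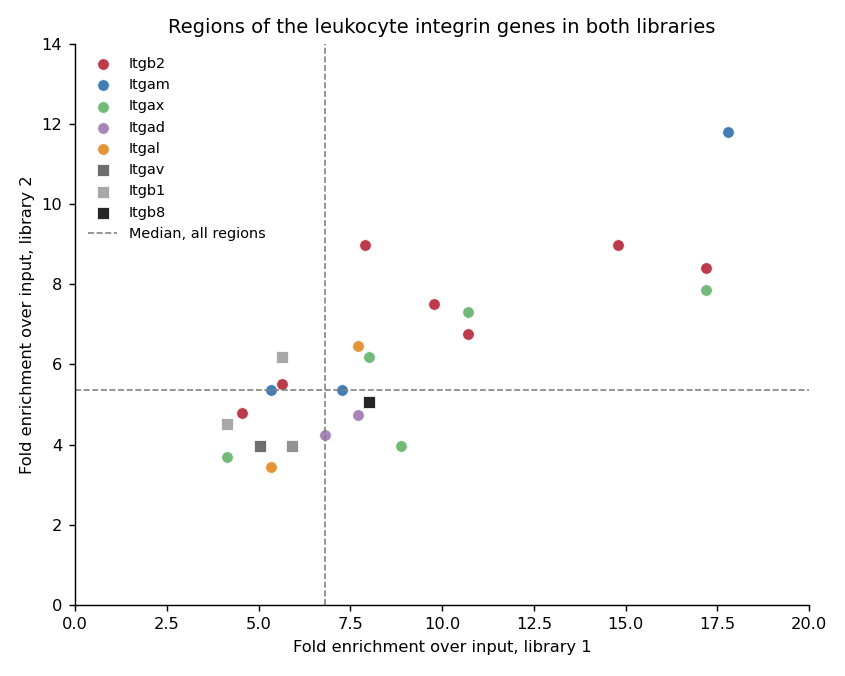
Fold enrichment over input of the 25 regions in library 1 (horizontal) and library 2 (vertical), coloured by gene, with circles for genes of the β2 receptors, squares for Itgav, Itgb1 and Itgb8, and dashed lines at the medians of all regions (6.81 and 5.35). Itgam_1 is alone at the upper right, all squares lie below 1 or both medians, and Itgav_1 and Itgb1_1 share a point.

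The 25 regions had a median fold of 7.70 in library 1 and 5.35 in library 2, beside 6.81 and 5.35 over all regions. Both libraries placed 11 of them (44.0%) at or above the middle of all regions, where 36.6% of all regions were, and 2 (8.0%) at or above 90% of all regions, where 6.05% were. Those 2 were Itgam_1 and Itgb2_7. The summits of the highest peak in each library were at most 100 bp apart for 13 of the 25 (52.0%), beside 52.7% of all regions, and the largest gap was 509 bp. In these measures the list stood near the whole set.

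The regions sat inside genes more than at promoters. By their centres, 18 of 25 (72.0%) were intronic, beside 46.6% of all regions, 5 (20%) were intergenic, beside 29.8%, and 1 (4.0%, 95% Wilson interval 0.710 to 19.5) was in a promoter, beside 18.6%. The low count depends on the window and on the centre. With a window of 500 bp on either side of the TSS it was 12.0%, beside 16.9% of all regions, and when any overlap with the first window counted it was 4 regions (16.0%), beside 23.3%. Both Itgax_1 summits also lay within that first window. Downstream of the TSS lay 20 of 25 (80.0%), beside 54.7%, and 18 of 25 (72.0%, interval 52.4 to 85.7) were more than 3 kb from any TSS, beside 61.4%. Regions of 1 gene are not independent, Itgb2 and Itgax gave 12 of the 25, and these shares were not tested.

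Motifs were searched as fixed letters on both strands in the 201 bases around each library 1 summit. PU.1 and related ETS factors, C/EBP, AP-1 and RUNX factors are known to act at macrophage enhancers, and PPARγ with RXR binds a DR1 element, a pair of half-sites with 1 base between them. A PU.1 pattern, GAGGAAGT, was in 3 windows (12.0%), beside 6.83% of all regions, and all 3 were in Itgam or Itgax. Itgax_2 held 3 such matches, and the nearest pair, shown with the matches in capitals on the plus strand, filled 21 bases.
Itgax_2, chr7:128133841-128133861: ACTTCCTCctgtaACTTCCTC
The broader ETS pattern, AGGAAG or CGGAAG, which overlaps the PU.1 pattern, was in 9 windows (36.0%), beside 42.7%. The AP-1 pattern TGANTCA was in 4 (16.0%), beside 9.98%, RUNX, as TGTGGTT, in 4 (16.0%), beside 8.02%, and C/EBP, as TTGCNNAA, in 4 (16.0%), beside 15.1%. Itgam_3 carried PU.1, AP-1 and C/EBP matches in its 1 window, and Itgad_2 an ETS and a RUNX match. Within 50 bp of the summit, the counts were 1 for PU.1, 5 for ETS, 2 for AP-1, 3 for RUNX and 2 for C/EBP. Shares over all regions are not given for this narrower window, so the lower counts have no background beside them.

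The nuclear receptor half-site, AGGTCA or GGGTCA, was in 7 of the 25 windows (28.0%), beside 23.3% of all regions. It lay 66 to 61 bp left of the Itgax_1 summit, after an AP-1 match at 80 to 74 bp left. In Itgb2_2 it began 7 bp right of the summit, directly after the RUNX match that began at the summit base. A DR1 with at most 1 mismatch was in 2 windows (8.0%), beside 1.57% of all regions, and both were in Itgb2. Itgb2_6, in intron 5, held 2 of them, from 29 to 17 bp left and from 6 to 18 bp right of the summit, and Itgb2_1 held 1, from 97 to 85 bp left. DR1 matches with 0 mismatches were in 0 of the 25 windows. Windows around the library 2 summits held a DR1 in 1, AP-1 in 2, PU.1 in 2 and RUNX in 3 of the 25. They held the half-site in 10 and ETS in 11, so these counts move both ways with the choice of summit.

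Of the other patterns, the RBPJ pattern TGGGAA was in 7 windows (28.0%), beside 17.7%, and STAT, as TTCNNNGAA, in 2 (8.0%), beside 7.30%, both in Itgax. An IRF pattern was in 1 (4.0%), beside 3.34%, namely Itgb8_1, where 2 matches overlapped. The KLF/SP pattern GGGCGGG (6.38% of all regions), the E-box CACGTG (4.33%) and the SMAD pattern GTCTAGAC (0.227%) were in 0. So were the MARE (0.593%) and NFKB (1.18%) patterns. With shares this low, a count of 0 in 25 windows says little. Itgam_1, the region with the highest fold, was 1 of 6 windows with no match to any of the 15 patterns. A match says that the letters are there and not that a factor binds, and the absence of a match says only that these letters were not found in the window.

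**Figure D5:**
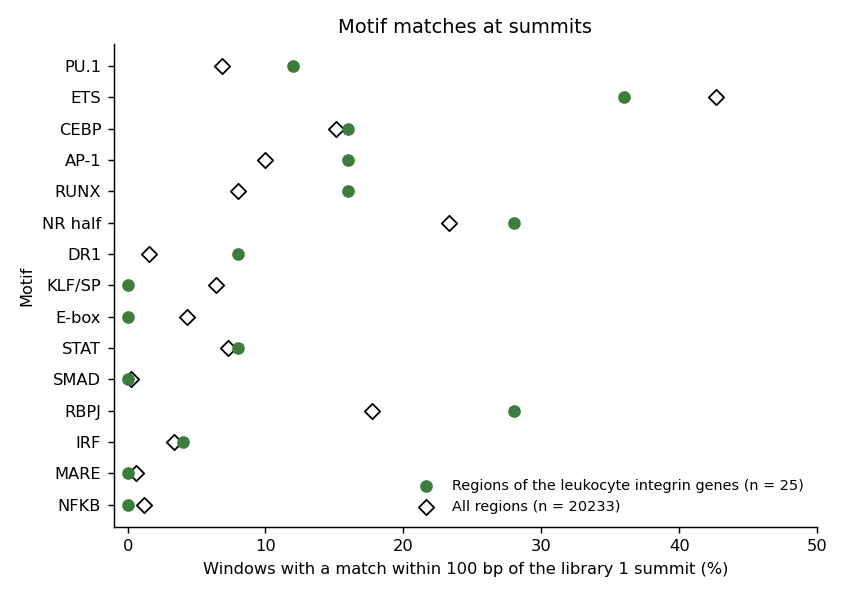
Share of windows (%) with a match to each of the 15 patterns within 100 bp of the library 1 summit, for the 25 regions of the leukocyte integrin genes (green circles) and for all 20233 regions (open diamonds). With 25 windows 1 window is 4.0%, and most circles lie within a few windows of their diamond.

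The 16 other integrin subunit genes had regions at 6 (37.5%), 14 in all, beside 31.6% of all genes. Itgb5, an αv partner, had 4 regions, with a best fold of 9.48 in library 1 and 7.31 in library 2. From here on, best folds are those of the gene's region ranked first by the lower of its positions in the libraries. Another region of a gene may be higher in a single library. Itga4, which encodes the α4 of VLA-4, had 3, with a best fold of 9.18 and 8.70. Itga8 had 3, Itga5, the fibronectin receptor chain, had 2, and Itga1 and Itga6 had 1 each. Itga2, Itga2b, Itga10 and Itga11 were among those with none. The known α partners of β7, Itga4 and Itgae, had 3 and 0 regions.

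Genes that switch integrins on or carry their signals had regions at 25 of 33 (75.8%), 180 in all, beside 31.6% of all genes. Cytip, which restrains β2 activation through cytohesin, had 25 regions, with a best fold of 17.8 and 12.1. Apbb1ip, the talin-recruiting Rap1 effector RIAM, had 20, with a best fold of 16.6 and 12.3. The kinases Syk, Ptk2b and Lyn, which act downstream of β2 integrins, had 21, 19 and 14. Cd47, an integrin-associated membrane protein, had 20, with a best fold of 21.3 and 14.3. Fermt3, the kindlin of blood cells that binds β chain tails, had 2, and Tln1, talin, had 1. Fermt1, Ilk, Itgb1bp1 and Parva had none.

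Genes for integrin ligands and partners had regions at 11 of 22 (50%), 44 in all, beside 31.6% of all genes. With summits required within 100 bp it was 5 of 22, beside 24.2% of all genes. Spp1, the αv ligand osteopontin, had 10, with a best fold of 12.1 and 8.98. F11r, the αL ligand JAM-A, had 9, Vcam1, the α4β1 ligand, had 6, and Fn1, fibronectin, had 5. The fibrinogen genes Fga, Fgb and Fgg, whose product is an αM ligand, and Icam4 had none. No list was tested against the others, and genes differ in how much of a chromosome lies nearest to them.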

How the data were processed

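Peaks of 2 PPARγ ChIP libraries were analysed. The 2 input libraries are not analysed here. The study's methods and the submitters' notes name MACS3 for peaks, called by the authors in each library separately at a q of 0.05, after bcl2fastq 2.20.0.422, cutadapt, CASAVA, SAMtools and Bowtie2, on mm10. The authors deposited for each peak a fold enrichment (a ratio to input), the −log10 p-value and q-value, a score and the summit. Peaks, TSSs and features were joined with Python 3.11.15 and numpy 2.4.6 on the curated RefSeq annotation of GRCm38, sequences were read from that genome with samtools 1.23.1 and pysam 0.24.0, and aligned with blastn 2.17.0. Region calling, assignment and the search for the PU.1 pattern were tested on simulated data, and the other patterns were not. No p-value was computed. The members and the lists were chosen with earlier results of these data known. All members are named, with all regions of a gene where it had at most 6, else its 4 best by the lower percentile. Itgb2_1, Itgb2_2 and Itgb2_5 are given beyond this rule. Other lists name up to 6 genes by region count and 4 without any. Tln1, Fermt3 and Itgae were added to these after their values were seen. Alternatives were stricter q, fold, overlap and summit limits, a shortened library 1, each library alone, and other assignment, promoter and motif settings. Applying them to the related lists was added after seeing the data. Wilson intervals cover counting error over regions.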

Additional observations from a re-analysis of the deposited data

How the results depend on the processing

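The number of leukocyte integrin genes with a region was 8, and it ranged from 6 to 9 over the alternatives. It was 6 at a fold of at least 5 in both libraries (without Itgad and Itgav, 22.7% of all genes having a region), 6 with summits within 100 bp (without Itgad and Itgb8, beside 24.2%), and 9 in library 1 alone, which adds Itgb6 (beside 60.6%). The count of 25 regions fell to 15 at a fold of at least 5, to 15 with a reciprocal overlap of 50% and to 14 with summits of any pair of peaks within 100 bp, 1 more than by the highest peaks because a lower library 1 peak of Itgax_3 met the limit. The cluster's 10 regions became 6 at a fold of at least 5 and 4 with summits within 100 bp. With 1 library left out the counts ranged from 39 to 85 at the 10 genes and from 15 to 33 in the cluster, the higher values being those of library 1 alone. The share of regions over 3 kb from any TSS, 72.0%, was 28.0% at over 10 kb. Of 162 alternative counts of regions at single genes, of list genes with a region and of windows with a motif, 120 stayed within 1.5 times of their main value and 42 did not. Peaks per gene depend on the length of the peak lists, which differ 2.94 times between the libraries. No paired analysis was possible because peaks were called for the ChIP libraries against input, so that 1 group alone has values.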
